A study of Homo sapiens with 30 samples.

Results

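The 2 mirror-image forms of one small molecule were set against each other in the human lymphoma cell line TMD8 after 8 h. This comparison rests on 6 of the 30 arrays of the series, 3 from cells given YK-S for 8 h and 3 from cells given YK-R for 8 h, chosen by their labels for cell line, treatment and time. The matching 3 YK-S and 3 YK-R arrays at 4 h were fitted with them, so that 12 TMD8 arrays shared a single estimate of the spread. TMD8 is an established line of the activated B cell-like type of diffuse large B cell lymphoma, and YK-S and YK-R are the S and R enantiomers of YK-4-279, a compound made to interfere with ETS-family transcription factors. No TMD8 array came from untreated or solvent-treated cells, so every value below is YK-S relative to YK-R, and a change from the untreated state could not be measured. The labels give no dose. Whether replicate arrays stand for separately grown and treated cells is not given either, and where they do not, the p-values reflect technical spread only. Each array read pooled RNA of many cells, so more RNA per cell and more cells with the RNA cannot be told apart.

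Small nucleolar RNAs (snoRNAs) are short RNAs of the nucleolus that guide enzymes to ribosomal RNA. The C/D box class guides ribose methylation, the H/ACA box class guides the change of uridine to pseudouridine, and the related scaRNAs act on spliceosomal RNAs in Cajal bodies. Most human snoRNAs are cut from the introns of other genes, many of which encode ribosomal proteins or translation factors, and are then held by a small set of core proteins such as fibrillarin. SPIB, an ETS factor, supports the survival of this type of lymphoma together with IRF4.

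The TMD8 arrays had mean signals of 419.6 to 494.1 intensity units, with 47.2% to 57.1% of probes above background. Of the B cell markers, 10 of 11 lay above background on all 12 arrays, and PAX5 did so on 8. Of the germinal centre type markers, 4 of 5 did so on all 12 arrays, with LMO2, BCL6 and SERPINA9 at means of 10.51, 9.90 and 9.60 log2. None of the 7 T cell markers and none of the 3 red cell markers did so on all 12 arrays. CD3D, TRAT1 and HBA1 were above background on none, but CD2, CD28 and CD8A on 11, 10 and 8 and ALAS2 on 6. The myeloid list had 3 of 7 and the stromal and epithelial list 2 of 8 on all 12 arrays. The mean of the T cell markers was 4.76 to 4.87 on the YK-S 8 h arrays and 4.81 to 5.06 on the YK-R 8 h arrays, and that of the myeloid markers was 5.01 to 5.37 and 4.89 to 5.12. At 8 h 2 arrays stood apart from the rest. YK-R replicate 3 had a median correlation of 0.973 with the other TMD8 arrays and YK-S replicate 2 one of 0.978, against 0.984 to 0.990 for the other 10, and the lowest correlation of any pair, 0.959, was between these 2. Precision was set by having 3 arrays per group, and the median half-width of a probe's 95% interval at 8 h was 0.39 log2.

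After 8 h, 12 C/D box snoRNAs were more abundant under YK-S than under YK-R, by 2.69-fold to 6.96-fold, and no probe with a gene name was called lower. A probe was called when its limma adjusted p was under 0.05 over the 24108 probes above background. In all 13 probes were called (0.0539% of those tested), 12 of them higher (0.0498%) and 1 lower (0.00415%). All 12 higher ones belonged to the C/D box list. At an unadjusted p under 0.05 there were 1569 probes against 1205.4 expected by chance, 726 higher (3.01%) and 843 lower (3.5%). The count of calls was 0 without YK-S replicate 2 and YK-R replicate 3 together, an alternative chosen after the data were seen, with 942 probes at an unadjusted p under 0.05. Leaving out single 8 h arrays gave 1 call for YK-S replicate 2 and 1 for YK-S replicate 3. For YK-R it gave 2 calls when replicate 1 was left out, 4 for replicate 3 and 359 for replicate 2, with 322 lower. It was also 4 without YK-S 4 h replicate 1 and 4 without any single YK-R 4 h array. The fits with no filter, with only the 6 compared arrays and with all 30 arrays each gave 0 calls by limma, with 2567, 974 and 626 probes at an unadjusted p under 0.05. SNORD46 was called in 18 of the 22 alternative settings counted, SNORD2 and SNORD71 in 7 and SNORD35A in 6, and over the 12 snoRNAs 138 of 262 values were not called. Not every alternative fit that was run is among these 22.

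SNORD46, a methylation guide, showed the largest difference among the called probes. It read 10.96, 11.25 and 11.86 log2 on the 3 YK-S arrays and 8.73, 8.08 and 8.86 on the 3 YK-R arrays. The groups did not overlap, and the lowest YK-S array stood well above the highest YK-R array. The log2 difference was 2.80 (SE 0.27, 6.96-fold, limma adjusted p = 0.0053).

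SNORD38B, another methylation guide, read 7.04, 7.99 and 8.09 with YK-S and 5.16, 4.66 and 5.001 with YK-R. All YK-S values were higher, and the YK-R values were close to background, with 2 of 3 arrays above it. Its log2 difference of 2.77 (SE 0.33, limma adjusted p = 0.011) therefore rests on a dim comparison group. SNORD38A and SNORD55 were at 1.99 (SE 0.35, limma adjusted p = 0.12) and 1.25 (SE 0.32, limma adjusted p = 0.51). Neither was called, although the groups did not overlap in either case.

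SNORD18A, from an intron of the ribosomal protein gene RPL4 on chromosome 15, read 7.78, 8.08 and 8.55 with YK-S and 5.77, 5.65 and 5.20 with YK-R. The groups were again apart, with a log2 difference of 2.59 (SE 0.28, limma adjusted p = 0.0070). SNORD13, which has a gene of its own rather than a host and takes part in the acetylation of the small-subunit ribosomal RNA, read 11.45, 11.57 and 12.03 with YK-S and 9.88, 9.51 and 9.83 with YK-R. Every YK-S array was above every YK-R array, and the log2 difference was 1.94 (SE 0.23, limma adjusted p = 0.011).

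The other 8 called snoRNAs differed by log2 1.43 to 1.99. SNORD71 was at log2 1.99 (SE 0.30), SNORD105 at 1.81 (SE 0.24), SNORD83B at 1.80 (SE 0.27) and SNORD2 at 1.78 (SE 0.27). SNORD59B was at 1.63 (SE 0.23), SNORD117 at 1.61 (SE 0.23), SNORD68 at 1.48 (SE 0.21) and SNORD35A at 1.43 (SE 0.22). Their limma adjusted p-values lay between 0.028 and 0.048, close to the threshold, and in each of them the 3 YK-S arrays were above the 3 YK-R arrays. SNORD105 was above background on 1 of 3 YK-R arrays, at 4.85, 4.55 and 4.68, against 6.19, 6.38 and 6.91 with YK-S. It passed the background filter through the YK-S groups alone. SNORD68 was bright on both sides, at 10.34, 10.54 and 11.03 with YK-S and 9.38, 9.13 and 8.96 with YK-R, so its difference does not rest on values near background. The largest uncalled increase among named genes with non-overlapping groups was SNORD74, from the non-coding host GAS5, which read 9.52, 8.85 and 10.72 against 7.56, 6.71 and 7.64 (log2 2.39, SE 0.43, limma adjusted p = 0.12). The 10 largest increases among named genes with non-overlapping groups were all C/D box snoRNAs, 8 of them called.

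**Figure D1:**
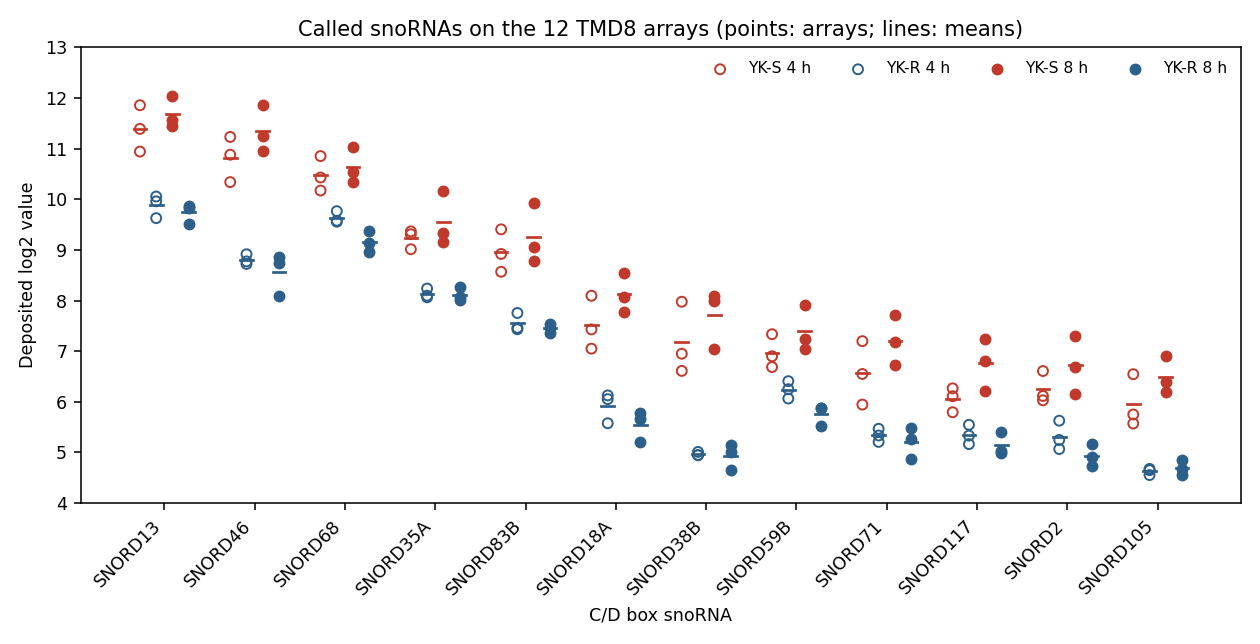
Deposited log2 values (y axis) of the 12 called C/D box snoRNAs (x axis, ordered by their YK-S 8 h mean) on the 12 TMD8 arrays, with YK-S in red and YK-R in blue, 4 h as open and 8 h as filled points, and group means as short lines. In every snoRNA the 3 filled red points lie above the 3 filled blue points, from SNORD13 at 11.45 to 12.03 down to SNORD105 at 6.19 to 6.91.

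Most of the C/D box class lay on the side of YK-S, and the counts over the class include the called members unless stated. Of 176 C/D box symbols on the array 101 were above background, and their median log2 difference was 0.36, against 0.01 over all probes tested. They ranged from -0.32 for SNORD97 to 2.80, with 80 above 0, and 44 had an unadjusted p under 0.05 in the direction of YK-S and 0 in that of YK-R. All 3 YK-S arrays exceeded all 3 YK-R arrays for 38 of the 101, or 37.6%, beside 4.67% of all probes, and the reverse held for 1, beside 3.67%. Without the 12 called members, 89 remained, with a median of 0.24, 68 above 0, 32 at an unadjusted p under 0.05 in the direction of YK-S and 26 with all 3 YK-S arrays above. None of these 89 passed the adjusted threshold. The mean over the class was 7.09, 7.18 and 7.41 on the YK-S arrays and 6.77, 6.68 and 6.59 on the YK-R arrays. These class means did not overlap. The labelling kit named in the labels primes from poly(A) tails, which mature snoRNAs lack, and whether the probes read mature or longer RNAs was not tested. Medians were alike at all signal levels: with the class split by mean level into 34 dim, 33 middle and 34 bright members, the medians were 0.36, 0.35 and 0.38, and the calls were 4, 3 and 5.

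H/ACA box snoRNAs, the pseudouridine guides, gave smaller differences and no call. Their median was 0.10 over 81 members, with 52 above 0, and 19 of them, or 23.5%, had non-overlapping groups in the direction of YK-S, beside 4.67% of all probes, and 3 in that of YK-R, beside 3.67%. The largest was SNORA51, which read 6.45, 6.40 and 7.46 with YK-S and 5.54, 4.95 and 5.19 with YK-R. The groups were apart, but the log2 difference of 1.54 (SE 0.29) had a limma adjusted p of 0.15. SNORA48 was at 1.45 (SE 0.35), SNORA1 at 1.35 (SE 0.25) and SNORA38B at 1.31 (SE 0.27). The 20 scaRNAs had a median of 0.21, from -1.20 for SCARNA27 to 0.77 for SCARNA23, and none was called.

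Other short non-coding RNAs gave no call and held members of either sign. Of 24 measured, 17 were above 0, and the median was 0.16. RMRP, the RNA of a ribonuclease that processes ribosomal and mitochondrial RNA, was at 0.53 (SE 0.24), while RN7SK, which holds back the elongation factor P-TEFb, was at 0.08 (SE 0.34). The Y RNAs RNY1 and RNY4, partners of the Ro protein, had negative values. RNY1 read 8.26, 7.61 and 8.18 with YK-S and 8.72, 8.38 and 8.81 with YK-R, and the groups did not overlap, but the difference of -0.62 (SE 0.18) had a limma adjusted p of 0.55. At 4 h it was -0.55. RNY4 was at -0.69 (SE 0.30) at 8 h and -1.31 at 4 h.

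U3, the abundant C/D box RNA needed to cut the precursor of ribosomal RNA, is made from genes of its own with near-identical copies, whose probes may not tell them apart. Its copy SNORD3A read 10.06, 9.10 and 10.83 with YK-S and 9.33, 8.90 and 9.53 with YK-R. The groups overlapped, and the difference was 0.74 (SE 0.34, limma adjusted p = 0.76). SNORD3C was at 1.06 (SE 0.34) and SNORD3D at 0.94 (SE 0.40). YK-S replicate 2 was the lowest YK-S array for all 3 copies.

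Because most snoRNAs are spliced out of a host transcript, each called snoRNA was set beside the gene that holds it. Of the 12 called snoRNAs 11 lie inside 1 gene, in 10 genes in all, and 9 of these genes had a probe above background. None of the 9 hosts was called, and their differences had a median of -0.00 and ran from -0.17 to 0.16. The called snoRNAs were chosen for high differences of their own, so that they exceed their hosts is a description only. RPL4, which holds SNORD18A, read 13.34, 13.21 and 13.13 with YK-S and 13.21, 13.20 and 13.24 with YK-R, a difference of 0.01 with a 95% interval of -0.25 to 0.27. These values overlapped fully, whereas those of SNORD18A were far apart. EIF4A2, a helicase of translation initiation that holds SNORD2, was at -0.00 (-0.32 to 0.31), and ATP5F1B, a subunit of the mitochondrial ATP synthase that holds SNORD59B, was at -0.04 (-0.28 to 0.20). With YK-R, EIF4A2 and ATP5F1B read 12.96 and 13.97 on average, and the highest value on the arrays is 14.17. A rise as large as the 1.78 and 1.63 of their snoRNAs could therefore not be read there. The ribosomal protein genes RPL3, RPL13 and RPL13A were at -0.02, 0.00 and -0.04.

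The less bright hosts had wider intervals. PPAN, a factor of ribosome assembly that holds SNORD105, was at 0.08 (-0.50 to 0.65), and AP1G1, a clathrin adaptor subunit that holds SNORD71, was at 0.16 (-0.19 to 0.51). DDX39B, a helicase of messenger RNA export that holds SNORD117, was at -0.17 (-0.53 to 0.19) on its brightest probe, while its dimmer probes were at 0.47 and 0.38. RPL4, RPL3, RPL13A, EIF4A2 and ATP5F1B lay near the top of the scale, where the highest value on the arrays is 14.17. A rise as large as that of their called snoRNAs could not be read on these probes. Whether they could still show a smaller rise was not tested. Over all C/D box snoRNAs, 76 had a host with a probe, and 61 of these 76 were above their host. The snoRNAs of these pairs had a median of 0.23 and the 42 host genes one of -0.00.

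**Figure D2:**
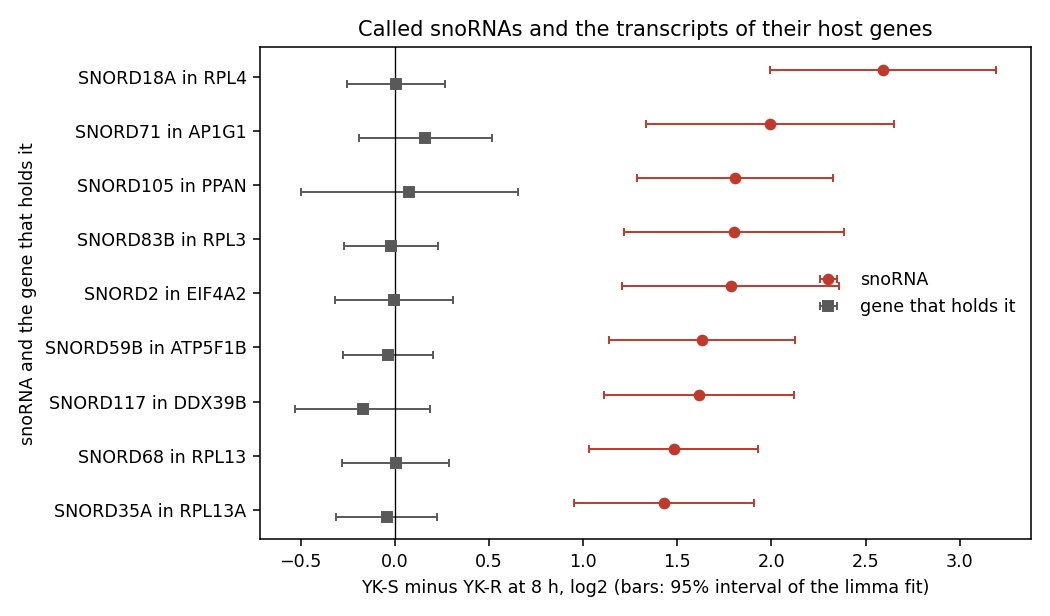
YK-S minus YK-R at 8 h on the log2 scale (x axis) for the 9 called snoRNAs whose host gene had a probe above background (y axis), with the snoRNA as a red circle, its host as a grey square and bars for the 95% interval. All 9 snoRNAs lie at 1.43 or above, and all 9 hosts lie between -0.17 and 0.16 with intervals that include 0.

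SnoRNAs of the same host had unlike differences. RPL13A holds SNORD35A, called at 1.43, beside SNORD33, SNORD34 and SNORD32A at -0.19, -0.21 and -0.21. SNORD33 read 8.76, 8.68 and 9.24 with YK-S and 9.04, 8.92 and 9.31 with YK-R, so its groups overlapped. RPL4 holds SNORD18A at 2.59, SNORD18B at 0.84 and SNORD16 at 0.02, and SNORD16 was bright, at 9.05, 8.72 and 8.90 against 8.90, 8.78 and 8.95. RPL3 holds SNORD83B at 1.80, SNORD43 at 0.48 and SNORD139 at 0.16. GAS5, a non-coding host, holds SNORD74 at 2.39, SNORD80 at 0.90, SNORD78 at 0.53 and SNORD76 at 0.14, while its own probe was at 0.35 (SE 0.21). That GAS5 probe was dim, at means of 5.72 with YK-S and 5.37 with YK-R. The lowest values above background were 4.72 to 4.92 on the TMD8 arrays. SNHG1, another non-coding host, was at -0.14 (SE 0.20), with SNORD27 at 1.54 and its other 4 measured snoRNAs down to -0.06. The differences between snoRNAs of 1 host were not tested.

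The start sites of the host genes are shown because the compound was made against ETS factors. CCGGAA, 1 form of the sites such factors bind, was searched, and other forms were not. The 250 bases before the start were read from RefSeq promoter sequences on GRCh38.p14, 5′ to 3′ on the strand of the gene, and were available for 8 of the 10 host genes. CCGGAA or its reverse complement TTCCGG was present for 5 of these 8 genes, in 5 of their 11 annotated windows, and in 14.5% of all 35116 promoter windows of that length. AP1G1, RPL4 and RPL13 had no match in these windows. A match describes the letters only and shows neither binding nor regulation. Of the 5, the 4 with a single annotated start are printed, with each match in capitals.
EIF4A2 promoter, chr3:186783327-186783576, plus strand: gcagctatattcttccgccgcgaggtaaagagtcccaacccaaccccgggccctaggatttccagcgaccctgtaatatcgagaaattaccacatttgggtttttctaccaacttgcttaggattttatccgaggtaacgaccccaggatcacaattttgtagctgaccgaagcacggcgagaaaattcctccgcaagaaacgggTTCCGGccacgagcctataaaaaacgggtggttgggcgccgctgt
RPL13A promoter, chr19:49487358-49487607, plus strand: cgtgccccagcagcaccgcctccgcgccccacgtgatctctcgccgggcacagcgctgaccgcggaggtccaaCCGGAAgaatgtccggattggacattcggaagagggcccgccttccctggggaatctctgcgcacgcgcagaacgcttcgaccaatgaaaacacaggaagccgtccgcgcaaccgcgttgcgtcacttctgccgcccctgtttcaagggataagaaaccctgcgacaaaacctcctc
RPL3 promoter, chr22:39319624-39319873, minus strand: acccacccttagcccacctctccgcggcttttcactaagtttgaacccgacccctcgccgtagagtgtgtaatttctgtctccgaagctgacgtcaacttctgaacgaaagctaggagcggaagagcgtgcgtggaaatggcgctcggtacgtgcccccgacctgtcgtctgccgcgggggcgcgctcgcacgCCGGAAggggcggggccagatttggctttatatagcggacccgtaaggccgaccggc
DDX39B promoter, chr6:31542004-31542253, minus strand: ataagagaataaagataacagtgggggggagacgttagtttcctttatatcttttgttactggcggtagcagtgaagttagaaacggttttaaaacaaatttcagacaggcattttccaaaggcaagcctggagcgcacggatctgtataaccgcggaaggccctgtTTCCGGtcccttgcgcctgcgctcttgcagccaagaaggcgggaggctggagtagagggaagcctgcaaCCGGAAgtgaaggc
The hosts EIF4A2, RPL13A, RPL3 and DDX39B had differences of -0.00, -0.04, -0.02 and -0.17, and their called snoRNAs SNORD2, SNORD35A, SNORD83B and SNORD117 of 1.78, 1.43, 1.80 and 1.61. SNORD18A, SNORD71 and SNORD68 were called as well, at 2.59, 1.99 and 1.48, and lie in the genes without a match to CCGGAA.

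The 4 h arrays gave the same direction for all 12 snoRNAs. They entered the 8 h calls through the shared spread and through the choice of probes kept and adjusted over. SNORD46 read 10.88, 11.23 and 10.34 with YK-S and 8.77, 8.91 and 8.72 with YK-R at 4 h. The groups did not overlap, and the log2 difference was 2.01 (limma adjusted p = 0.095). SNORD13 read 11.39, 11.86 and 10.94 against 9.96, 10.05 and 9.63, a difference of 1.52 (limma adjusted p = 0.14). SNORD38B was at 2.21 and SNORD18A at 1.61. At 4 h limma called 0 probes (0%), with 451 at an unadjusted p under 0.05. Of all probes 3.75% had all 3 YK-S arrays above all 3 YK-R arrays at 4 h, among them 19 of the 101 C/D box snoRNAs, and 4.07% had them below.

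The 12 called snoRNAs were chosen for their 8 h difference, so a smaller difference at 4 h, which all 12 had, is a description and no result. The 8 h difference minus the 4 h difference was 0.99 on the log2 scale for SNORD18A, 0.79 for SNORD46 and 0.43 for SNORD13. Over the 101 C/D box snoRNAs the difference was larger at 8 h for 80, and over the 89 uncalled ones for 68, and the class median was 0.09 at 4 h beside 0.36 at 8 h. The difference between times was called for 0 probes by limma (0%), with 948 at an unadjusted p under 0.05. Across the 101 snoRNAs the differences at 8 h and at 4 h had a Pearson correlation of 0.90, and across all probes of 0.06. The times share no array, but they share the spread estimate and the choice of probes. SnoRNAs of similar sequence or host are not independent points. With both times joined, 37 probes (0.153%) had all 6 YK-S arrays above all 6 YK-R arrays, and 17 of them were C/D box and 5 H/ACA box snoRNAs.

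**Figure D3:**
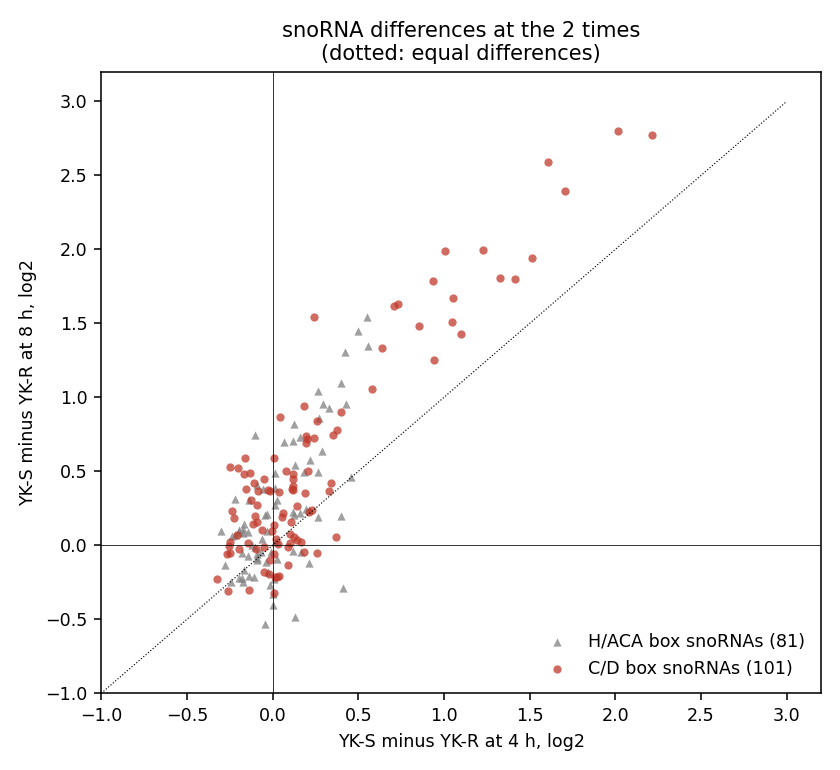
YK-S minus YK-R on the log2 scale at 4 h (x axis) and at 8 h (y axis) for 101 C/D box (red circles) and 81 H/ACA box snoRNAs (grey triangles), with a dotted line of equal differences. SNORD46 and SNORD38B are at the upper right, at 2.80 and 2.77 on the y axis, and 80 of the 101 C/D box snoRNAs lie above the dotted line.

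Proteins that bind snoRNAs or build ribosomes gave no call. The 19 core proteins and chaperones of snoRNA particles had a median of 0.01. Fibrillarin (FBL), the methylase of C/D box particles, read 11.84, 12.07 and 11.63 with YK-S and 11.55, 12.10 and 11.64 with YK-R. The groups overlapped, and the difference was 0.08 with an interval of -0.27 to 0.44. Its partners NOP56 and NOP58 were at 0.07 (-0.30 to 0.45) and 0.21 (-0.28 to 0.69). The 78 cytosolic ribosomal protein genes had a median of 0.00 and ranged from -0.28 to 0.22, and the 27 ribosome biogenesis factors had a median of 0.04. The 16 non-coding snoRNA hosts had a median of -0.10 with 3 above 0.

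SPIB, the ETS factor the lymphoma depends on, showed no detectable difference at this precision. It read 12.37, 12.05 and 12.45 with YK-S and 12.51, 12.14 and 12.34 with YK-R. The values overlapped, and the difference was -0.04 with an interval of -0.36 to 0.28. IRF4, which read 11.50, 11.98 and 10.88 against 11.82, 11.62 and 11.22, was at -0.10 (-0.71 to 0.50). MYC was at -0.17 (-0.73 to 0.40), and the RNA helicase DHX9, a known partner of the ETS fusion protein the compound was first aimed at, was at -0.04 (-0.47 to 0.38). In the ETS family list 0 of 21 members were called and the median was -0.00. ETS1 was at -0.13 (-0.44 to 0.17) and SPI1, the closest relative of SPIB, at -0.15 (-0.68 to 0.40).

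Of the 33 gene lists only the C/D box list had a called member, and the other 32 had none in either direction. The 40 genes of mitosis and the spindle had a median of 0.16 with 38 above 0 at 8 h, beside 26 at 4 h. Of all probes 53.2% were above 0 at 8 h. Cyclin B1 (CCNB1), the activator of the mitotic kinase, was at 0.33 (SE 0.18), the kinase PLK1 at 0.33 (SE 0.25) and the kinase AURKA at 0.23 (SE 0.15). PLK1 read 7.97, 8.53 and 8.49 with YK-S and 7.42, 8.46 and 8.14 with YK-R, with overlap. The list had 0 of 40 members with non-overlapping groups, beside 4.67% of all probes in the direction of YK-S and 3.67% in that of YK-R. Its mean was 10.08, 10.35 and 10.49 on the YK-S arrays and 9.96, 10.14 and 10.33 on the YK-R arrays, and these means overlapped.

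Genes of B cell signalling and survival were likewise not called. The 28 interferon-stimulated genes had a median of -0.13 with 6 above 0, and MX1, an antiviral GTPase, was at -0.11 (-0.44 to 0.21). The 28 NF-kB targets had a median of -0.05, with the inhibitor NFKBIA at -0.02 (-0.67 to 0.62). Among 28 genes of the B cell receptor and surface the median was -0.10, with the signalling chain CD79B at 0.05 (-0.31 to 0.40) and the kinase BTK at 0.03 (-0.38 to 0.45). Of the p53 targets, 21 had a median of 0.11, and the cell cycle inhibitor CDKN1A was at 0.11 (-0.49 to 0.70). The stress gene DDIT3 was at 0.37 (-0.04 to 0.77) and the heat shock gene HSPA8 at 0.06 (-0.22 to 0.34). The apoptosis regulators BCL2 and MCL1 were at -0.04 (-0.46 to 0.38) and 0.05 (-0.29 to 0.39). The 16 tubulins had a median of 0.01, with TUBB at -0.00 (-0.37 to 0.37).

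**Figure D4:**
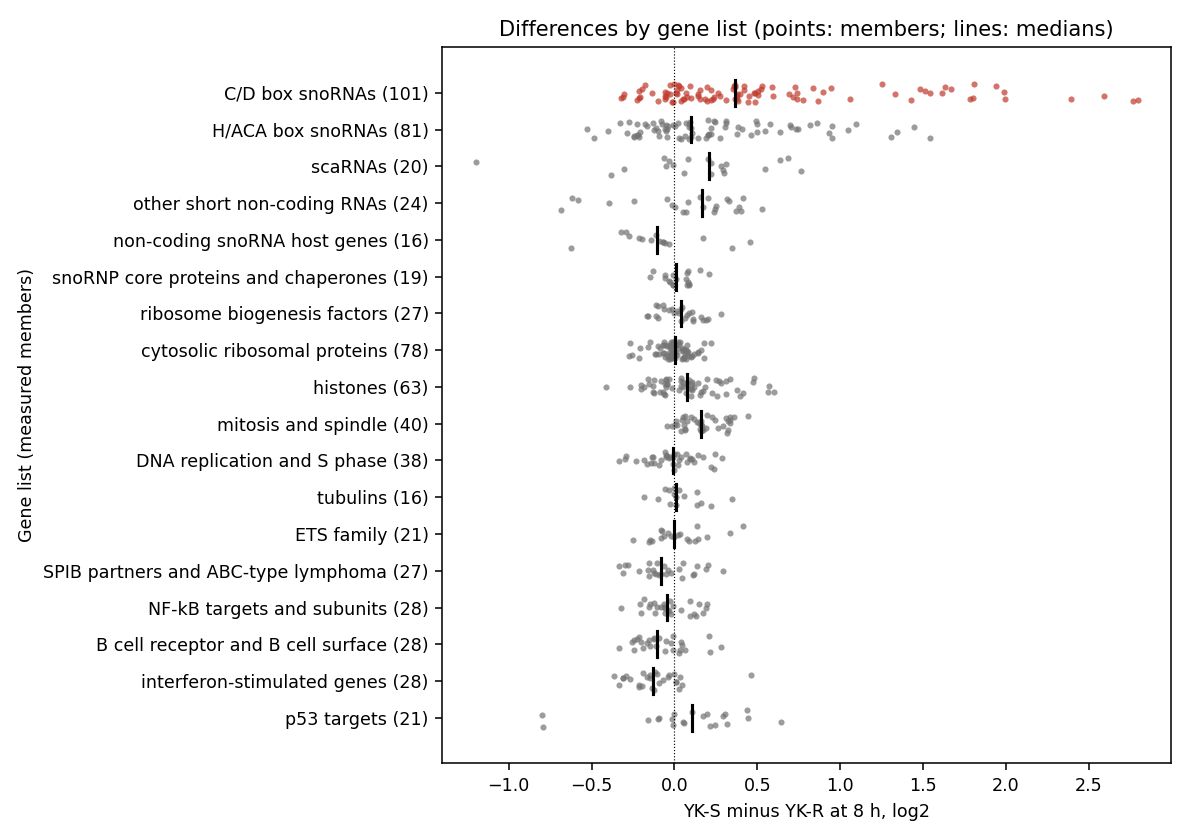
YK-S minus YK-R at 8 h on the log2 scale (x axis) for the measured members of 18 gene lists (y axis, number of members in brackets), with members as points and the list median as a black line. The C/D box snoRNAs, in red, reach 2.80 with a median of 0.36, while the 78 ribosomal protein genes lie between -0.28 and 0.22.

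No named gene was called lower with YK-S. The single called decrease was probe ILMN_3227955, which carries no gene name in the annotation used. It read 5.26, 4.71 and 4.75 with YK-S, above background on 1 of 3 arrays, and 6.98, 6.03 and 7.36 with YK-R (log2 -1.89, SE 0.27, limma adjusted p = 0.036). The probe passed the background filter only through the YK-R 8 h group, where it is high. Its call is therefore not independent of the filter, and the fit with no filter called 0 probes. At 4 h its difference was 0.06, with all 6 values between 4.63 and 4.85.

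The 10 largest decreases among named genes with non-overlapping groups were dim with YK-S, and none was called. YK-R replicate 3, an array that stood apart, was the highest of the 6 arrays in 10 of 10. LINC03019, a long non-coding RNA, read 5.09, 4.62 and 4.98 with YK-S and 6.60, 5.45 and 7.83 with YK-R (log2 -1.73, SE 0.46, limma adjusted p = 0.55). The YK-R arrays spanned a wide range, and YK-R replicate 2 lay near the YK-S values. CD84, a lymphocyte receptor of the SLAM family, was at -1.68 (SE 0.51), while its other probe was at 0.06. One probe of SLC25A45, a carrier of the mitochondrial membrane, was not well above background on any YK-S array, and its mean was at least 2.82-fold lower there. That probe read 5.89, 5.03 and 8.05 with YK-R, so that the bound is carried by replicate 3. The gene's brighter probe read 6.75, 5.80 and 6.92 with YK-S, above background on 3 of 3 arrays, and its difference was -0.01. TMEM178B, a membrane protein gene, had a mean at least 2.46-fold lower by the same measure, with 5.90, 5.25 and 7.24 with YK-R. These bounds compare the mean of the YK-R arrays with the lowest level above background on the YK-S arrays, or with the probe's own value where that is higher, and their limma adjusted p-values were 0.60 and 0.39.

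The others on this list were ANKRD13D, a ubiquitin-binding protein gene, at -1.60, SYT16 of the synaptotagmin family at -1.57, the antisense RNA PGM5-AS1 at -1.55, the guanine nucleotide exchange factor gene ARHGEF10L at -1.42, the pseudogene SBF1P1 at -1.42 and SERPINA5, the protein C inhibitor, at -1.40. ARHGEF10L had the lowest limma adjusted p among the 10, 0.12, and read 4.86, 4.97 and 4.61 with YK-S and 6.16, 5.77 and 6.76 with YK-R. Its other probe was at -0.39. The other kept probes of ANKRD13D were at 0.04 and 0.04. Of all 884 probes with the 3 YK-S arrays below the 3 YK-R arrays, YK-R replicate 3 was the highest in 52.7%. Of the 1126 with the 3 YK-S arrays above, YK-S replicate 2, the other array that stood apart, was the highest in 50.2%. In contrast, YK-S replicate 3 was the highest array for each of the 12 called snoRNAs. It also had the highest mean of the 6 arrays for the H/ACA box snoRNAs, the scaRNAs and the other short non-coding RNAs. The last list had means of 8.05, 7.47 and 8.62 with YK-S and 8.06, 7.67 and 8.21 with YK-R. Arrays of the same form thus differed in their level of these short RNAs. What that did to the snoRNA differences was not tested. Whether YK-S replicate 2 and YK-R replicate 3 shaped the lists of dim probes was not tested either.

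**Figure D5:**
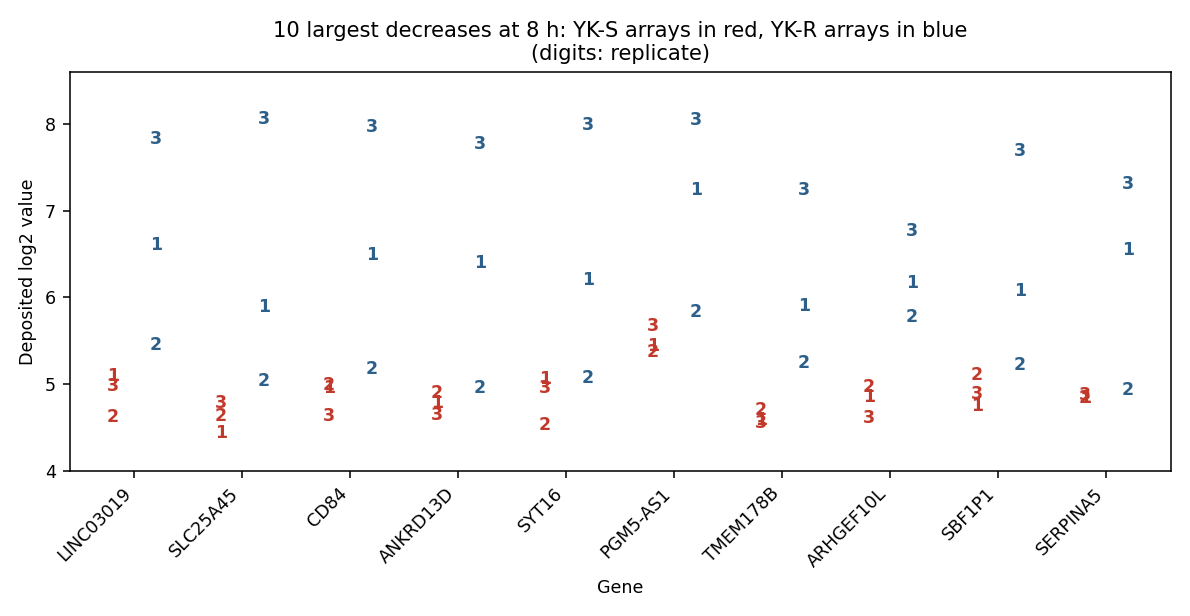
Deposited log2 values (y axis) of the 10 largest decreases at 8 h (x axis), with the replicate number of each YK-S array in red and of each YK-R array in blue. The YK-R replicate 3 value is the highest in all 10 genes, while YK-R replicate 2 lies close to the YK-S arrays in several, as in LINC03019 at 5.45.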

How the data were processed

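The RNA was extracted with an RNeasy kit and labelled with the Ambion TotalPrep kit, per the labels. The bead arrays were read with GenomeStudio, per the submitters' processing notes, with its version not given in the sources used here. The table analysed holds log2 values as deposited, for 47231 probes. Its log base was read from the slope on the signal table, and its 12 TMD8 columns share 1 distribution of values. How the authors corrected background and normalized is not given in the sources used here. The second deposited table holds bead signals in intensity units whose totals and background differ between arrays, so no normalization or background correction is visible in them. It served for detection and for alternatives. Array names agreed between the 2 tables for 12 of 12 TMD8 arrays. The values of YK-S 4 h replicate 1 were deposited with 2 decimals.

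The deposit has no detection p. Each array's background was therefore taken as a normal curve at the mode of its log2 signals, and a probe was kept if its upper-tail p was under 0.05 on all arrays of at least 1 of the 4 TMD8 groups (24108 probes). Of these 17075 carry 1 gene name (12585 genes) and 7033 none. Of the 47231 probes 30113 have 1 symbol, 8 several and 17110 none, and 30074 were matched to RefSeq by gene ID. One mean per group was fitted with limma 3.58.1 in R 4.3.3 (eBayes, 8 residual degrees of freedom, two-sided), and p-values were adjusted by Benjamini-Hochberg across the kept probes. On data simulated for the 8 h comparison with 24108 probes, 64% of changes of log2 1 and 95% of log2 2 were recovered. The simulation changed 100 probes by each size and used independent normal noise with no array that stands apart. These shares therefore describe the simulated setting and not the power of the real comparison. Replicate numbers follow accession order and were not taken as pairs.

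Named genes are the called probes, the 10 largest increases and decreases among named genes whose 3 arrays of each form do not overlap and which are above background on all 3 arrays of the higher group, the called members and up to 3 core members of 33 gene lists, SPIB, IRF4, MYC and DHX9, and the genes that hold a called snoRNA. Other snoRNAs named with a host, the largest of the H/ACA class and the extremes of a class were chosen after their values were seen. The brightest kept probe stands for a gene in a list. Members, lists and rules were chosen with earlier results of these data known. A host is a gene whose RefSeq coordinates contain the snoRNA. The table used gives no strand, so strand was not checked, and readthrough genes were left out.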

Additional observations from a re-analysis of the deposited data

Results flagged for a closer look

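PGM5-AS1, an antisense RNA, stood out because the forms lay in opposite order at the 2 times. At 8 h it read 5.44, 5.37 and 5.67 log2 with YK-S and 7.24, 5.83 and 8.05 with YK-R, so that all YK-S arrays were below all YK-R arrays. At 4 h it read 6.63, 5.98 and 6.53 with YK-S and 5.63, 5.60 and 5.91 with YK-R, so that all YK-S arrays were above. The difference between the 2 times was -2.22 log2 and did not pass the limma test (adjusted p = 0.9999). YK-R 8 h replicate 3, an array that stood apart, gave its highest value.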

How the results depend on the processing

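The 13 calls at 8 h became 11 with normexp-corrected signals, 10 with probes detected on all 12 arrays, 13 with detection at p under 0.01 or the brightest probe per gene, 15 with trend and robust eBayes and 9 with array weights. They fell to 5 with median-scaled signals, in which the median of all probes was 0.03. The count was 0 with no filter (2567 probes at an unadjusted limma p under 0.05), 0 with only the 6 arrays compared (974), 0 in a fit of all 30 arrays (626) and 0 without the 2 arrays that stood apart (942). The fit of all 30 holds arrays whose names did not agree between the 2 deposited tables. Leaving out 1 array at a time gave 1 to 359 calls at 8 h. The lowest count, 1, came without YK-S 8 h replicate 2 or replicate 3, and the highest without YK-R 8 h replicate 2, with all 13 calls among the 359. At 4 h the count of 0 became 2 with array weights and 2 with trend and robust eBayes, and stayed 0 to 0 without any 1 array. For the difference between times it was 0 to 55, with 55 without YK-R 8 h replicate 2. The difference between times cannot be had from the 6 arrays alone. The 12 called snoRNAs kept their sign in every alternative setting counted, between 0.67 and 3.10 log2, and the C/D box median lay between 0.16 and 0.41. No paired analysis was possible because the labels give no replicate numbers and accession order alone was not taken to pair arrays. At 4 h 6 of 6 arrays were nonetheless most alike to the array of the same number of the other form, against 2 of 6 at 8 h, as a hint from the data, and what a shared origin would do to the calls was not tested. Dim probes such as SNORD38B and SNORD105 have YK-R values at background, which limits their folds.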

Other observations

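In 3 genes outside the snoRNA lists 1 probe had all 6 YK-S arrays above all 6 YK-R arrays or non-overlapping groups at 8 h while other probes of the gene did not, and they were chosen after their values were seen. TMEM107, a protein of the primary cilium, read 8.10, 8.67 and 9.32 log2 with YK-S and 7.20, 7.15 and 7.42 with YK-R at 8 h on its brighter probe (log2 1.44, SE 0.26, limma adjusted p = 0.12), and its other probe was at -0.05. By RefSeq coordinates the C/D box snoRNA SNORD118 lies within TMEM107, and no probe analysed here carries its name. SNHG7, a non-coding snoRNA host, read 8.09, 8.27 and 8.05 against 7.44, 7.53 and 7.22 on 1 probe (log2 0.73, limma adjusted p = 0.12), and its other probes were at -0.20 and -0.18. KMT2E, a chromatin reader, was at 0.98 on 1 probe and at 0.20 and 0.03 on the others. Where in each transcript these probes lie was not tested.

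HSPA1A, the inducible heat shock chaperone, read 8.00 log2 on YK-S 4 h replicate 3 and 7.46 on YK-R 4 h replicate 3. The other 4 arrays at 4 h lay between 4.71 and 5.45, and the 6 arrays at 8 h between 4.80 and 5.44. Its difference between the forms at 8 h, 0.32 (SE 0.74), has a wide error because the spread is shared over all 4 groups.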
